A study of Arabidopsis thaliana with 36 samples.

Results

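Jasmonate signalling rests on a small set of genes that block, drive and report the response to the hormone. JAZ proteins are repressors that hold transcription factors such as MYC2 inactive, in a complex with the adaptor NINJA and the co-repressor TPL. When jasmonoyl-isoleucine accumulates, the F-box receptor COI1 binds the JAZ proteins and marks them for degradation, and the freed MYC2 activates its targets. Many JAZ genes are themselves targets, so that the signal rebuilds its own brake. The vegetative storage protein genes VSP1 and VSP2 encode acid phosphatase-like storage proteins and are textbook reporters of the MYC2 branch, induced by wounding and by jasmonate.

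The 10 genes described here were chosen by locus identifier, out of 16283 genes in the deposited table. Earlier results of these data were known when they were chosen. They are the JAZ repressor genes JAZ1 (AT1G19180), JAZ2 (AT1G74950), JAZ3 (AT3G17860), JAZ5 (AT1G17380), JAZ6 (AT1G72450), JAZ9 (AT1G70700) and JAZ12 (AT5G20900), the activator gene MYC2 (AT1G32640), and the reporter genes VSP1 (AT5G24780) and VSP2 (AT5G24770). All 10 were present, and all 10 symbols matched the reference annotation. To be tested in a tissue, a gene had to reach a normalized count of 5 in at least 3 of its libraries. Of the 10, 8 passed in roots (JAZ3 and JAZ9 did not) and 6 in shoots (JAZ2, JAZ3, JAZ6 and JAZ9 did not).

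The libraries came from wild-type Arabidopsis thaliana seedlings of ecotype Columbia-0, 7 days old, grown at 21 °C with 16 h of light. Roots and shoots were separated after treatment, each replicate pooled 30 to 50 seedlings, and RNA was profiled by MARS-seq, which counts the 3′ ends of transcripts. Treated seedlings were held for 1, 2 or 3 h in 30% polyethylene glycol (PEG), an osmotic agent measured at -2.0 MPa, with salicylhydroxamic acid (SHAM), a compound known to block the alternative oxidase and also lipoxygenases, which start jasmonate synthesis. The treatment label gives 1 mM SHAM and the protocol text also names 0.1 mM. Control seedlings were held for 1 h in water, in 3 sets whose titles begin with S0, PS0 and PH0, so that the later times have no water control of their own age. Each of the 6 groups of a tissue had 3 libraries, 36 in all. PEG without SHAM and SHAM without PEG were not analysed here, and the 2 agents cannot be told apart. In whole organs, fewer cells of a type and less RNA per cell cannot be told apart either.

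Library depth set what could be seen, because most JAZ genes had low counts. Libraries held 161684 to 7181461 reads, and 5 held fewer than 600000. Of these, 2 were root libraries (PS0 replicate 3; 1 h replicate 2) and 3 were shoot libraries (PS0 replicate 1; PH0 replicate 1; 2 h replicate 2). In shoot PH0 replicate 1, the shallowest, a count of 0 allows a normalized count of up to 33.3, which is above the values of several of these genes in other shoot libraries. The tissue labels held: the summed signal of 17 photosynthesis genes was 378.6 to 3787.4 in roots and 119956.8 to 283962.2 in shoots. The sum of 12 root marker genes was 955.0 to 3852.3 in roots and 22.5 to 155.5 in shoots. Root 1 h replicate 2 had the highest photosynthesis sum of the roots, against at most 1344.3 in the others. All changes below are differences of log2(normalized count + 1), which understate the fold of low genes, with the standard error (SE) of the limma fit and Benjamini-Hochberg adjusted p over all genes tested. A call is an adjusted p under 0.05.

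Under PEG+SHAM, JAZ5, JAZ12, MYC2, VSP1 and VSP2 rose and JAZ6 fell in roots when the 9 treated libraries were set against all 9 water libraries. In shoots JAZ1, JAZ5, JAZ12, MYC2 and VSP1 rose in the same comparison. That was 6 of 8 tested genes in roots, where 34.2% of all genes were called in either direction, and 5 of 6 in shoots, where the share of all genes was 34.3%. Against the PS0 water set alone, which carries the same title prefix as the treated libraries, JAZ12 in shoots at 3 h was the 1 call at any single time. With PS0 as the control for all 9 treated libraries, an alternative added after the values were seen, 1 of 8 members was called in roots (JAZ5) and 0 of 6 in shoots. The share of all genes called with that control was also lower, 7.81% in roots and 10.2% in shoots. Values for both controls are given. The SE and adjusted p against all water come from the spread within groups. They leave out the spread between the 3 water sets, so they overstate certainty where the sets differ. The treated groups of a tissue share that PS0 control at the 3 times, so the times are not independent.

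**Figure D1:**
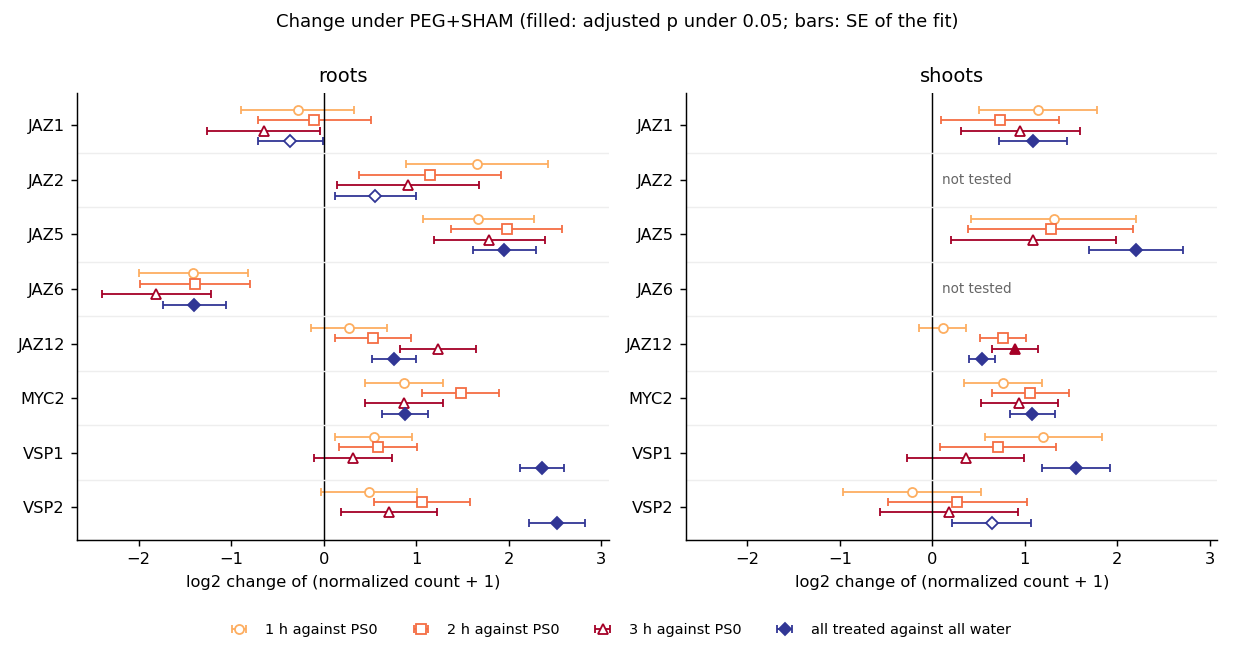
Log2 change of log-transformed normalized counts (x axis) for the 8 genes tested in roots and the 6 tested in shoots (y axis), at each time against the PS0 water set (3 against 3 libraries) and for all treated against all water libraries (9 against 9). Bars are the SE of the limma fit and filled symbols have an adjusted p under 0.05. JAZ5 in roots stood between 1.67 and 1.98 in all 4 comparisons, whereas VSP1 and VSP2 in roots stood between 0.32 and 1.06 against PS0 and at 2.36 and 2.52 against all water.

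Among the repressors, JAZ5 in roots had the plainest separation. Its normalized counts in the water libraries were 0.6, 0 and 7.0 in S0, 4.0, 1.8 and 3.1 in PS0, and 3.1, 3.3 and 5.0 in PH0. Under PEG+SHAM they were 14.8, 8.5 and 11.2 after 1 h, 11.8, 13.5 and 17.8 after 2 h, and 14.5, 8.4 and 15.3 after 3 h. All 9 treated libraries lay above all 9 water libraries, so the groups did not overlap. Of all tested root genes, 2.74% had no overlap in either direction, and JAZ5 was the 1 member of 8 that did. The level rose by 1.95 ± 0.34 (SE; adjusted p = 0.000369). Against PS0 alone it was the one member still called over the 9 treated libraries (1.81 ± 0.49, adjusted p = 0.0301). At single times against PS0 the change was 1.67 ± 0.60 at 1 h (adjusted p = 0.152), 1.98 ± 0.60 at 2 h (adjusted p = 0.0904) and 1.79 ± 0.60 at 3 h (adjusted p = 0.0847), none of them called. JAZ5 counts were small, from 0 to 11 reads in water and 2 to 77 in treated root libraries, and it passed the filter on low values mainly through the treated libraries. In PS0 replicate 3, with 1 JAZ5 read, 3 reads would be 9.31, above the lowest treated values of 8.4 and 8.5. The 8.5, of 1 h replicate 2, rests on 2 reads, so depth limits the separation there.

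JAZ5 in shoots reached like levels under PEG+SHAM, but 1 water set was mixed. Treated shoots had 13.3, 12.9 and 19.5 after 1 h, 15.6, 13.5 and 14.8 after 2 h, and 11.9, 9.7 and 17.5 after 3 h. S0 and PH0 shoots had 1.5, 0, 2.8 and 0, 5.1, 1.8, whereas PS0 had 0, 10.7 and 21.8. One PS0 library therefore lay above every treated one and another had no read, which at its depth allows up to 10.6. Against all water the level rose by 2.2 ± 0.51 (adjusted p = 0.00248), and by 1.54 without the 5 shallow libraries (adjusted p = 0.000924). With PS0 alone as control it was 1.23 ± 0.72 (adjusted p = 0.311). At single times against PS0 the values were 1.31 ± 0.89 at 1 h (adjusted p = 0.83), 1.28 ± 0.89 at 2 h (adjusted p = 0.393) and 1.09 ± 0.89 at 3 h (adjusted p = 0.467), and each changed sign when the shallow libraries were left out (-0.03, -0.01 and -0.26).

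JAZ6, a close paralog of JAZ5, went the other way in roots. Its levels were 10.5, 14.2 and 14.0 in S0, 3.0, 6.2 and 15.5 in PS0, and 2.2, 1.6 and 3.4 in PH0. Treated roots had 2.0, 4.3 and 0.6 after 1 h, 0.7, 4.8 and 1.7 after 2 h, and 0.9, 1.9 and 1.0 after 3 h. Only 4 of the 9 treated libraries lay below every water library, since PH0 was as low as many treated ones. JAZ6 fell by 1.40 (SE 0.34; adjusted p = 0.00466) against all water, and the value with PS0 alone was -1.53 ± 0.48 (adjusted p = 0.0595). Against PS0 the changes were -1.41 ± 0.59 at 1 h (adjusted p = 0.224), -1.39 ± 0.59 at 2 h (adjusted p = 0.268) and -1.81 ± 0.59 at 3 h (adjusted p = 0.078). No treated root library held more than 5 JAZ6 reads, and the gene passed the filter through its water libraries. In shoots its counts were 0 to 17.0 and were not tested.

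JAZ12, whose protein is known to be stabilised by the ubiquitin ligase KEG, was read from 39 to 776 times per library and was the most deeply counted of the repressor genes. In shoots the water libraries ranged from 196.6 to 433.0 with a median of 319.9. Shoots treated for 1 h stayed in that range with 305.4, 262.9 and 353.7, whereas 2 h gave 447.2, 579.2 and 420.3 and 3 h gave 555.5, 447.2 and 580.5. Of the 6 libraries at 2 and 3 h, 5 were above every water library. JAZ12 was the single member called against PS0 at any one time, at 3 h in shoots (0.89 ± 0.25, adjusted p = 0.0201), where it was 1 of 6 tested and 14.0% of all genes were called. The call was lost without PS0 replicate 3 (0.63, adjusted p = 0.0758), without 3 h replicate 1 (0.85, 0.0699) or without 3 h replicate 3 (0.82, 0.085). The 2 h value was 0.76 ± 0.25 (adjusted p = 0.0617) and the 1 h value 0.11 ± 0.25. Against all water it rose by 0.54 ± 0.14 (adjusted p = 0.00636), and the value with PS0 alone was 0.59 ± 0.20 (adjusted p = 0.0727).

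In roots JAZ12 had 135.0, 142.5 and 148.3 in S0, 83.0, 120.4 and 226.7 in PS0, and 97.6, 100.7 and 113.4 in PH0. Treated roots had 150.7, 290.0 and 91.4 after 1 h, 151.6, 346.0 and 130.6 after 2 h, and 249.1, 349.5 and 349.9 after 3 h. The 3 libraries at 3 h lay above every water library, while those at 1 and 2 h were spread across the water range and beyond. The rise against all water was 0.76 ± 0.24 (adjusted p = 0.0201), and with PS0 alone the value was 0.68 ± 0.33 (adjusted p = 0.23). At 3 h against PS0 it was 1.24 ± 0.41 (adjusted p = 0.081), and without the shallow libraries, which include the highest PS0 value, it was 1.63 (adjusted p = 0.00619).

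JAZ1, among the first JAZ repressors described, was called in shoots and not in roots. In roots its water levels were 4.0 to 40.4 with a median of 15.1 and its treated levels 4.8 to 19.3 with a median of 10.7, with full overlap (-0.36 ± 0.35, adjusted p = 0.45). In shoots water libraries had 3.1, 2.7 and 3.3 in S0, 3.5, 3.1 and 1.7 in PS0, and 0, 1.3 and 5.3 in PH0. Treated shoots had 3.6, 11 and 8.7 after 1 h, 5.2, 4.5 and 5.7 after 2 h, and 4.5, 11 and 4.4 after 3 h. Every treated shoot library was above every PS0 library, but only 4 of 9 were above all water libraries. The shoot level rose by 1.09 ± 0.37 against all water (adjusted p = 0.0284) on 0 to 17 reads per library, and it passed the filter mainly through treated libraries. That call was lost without S0 replicate 2 (1.07, adjusted p = 0.0504), 1 h replicate 2 (1.00, 0.0653), 1 h replicate 3 (1.05, 0.0543) or 3 h replicate 2 (0.97, 0.0675). Against PS0 alone the 9 treated libraries gave 0.94 ± 0.53 (adjusted p = 0.279) and 1 h gave 1.14 ± 0.64 (adjusted p = 0.763).

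**Figure D2:**
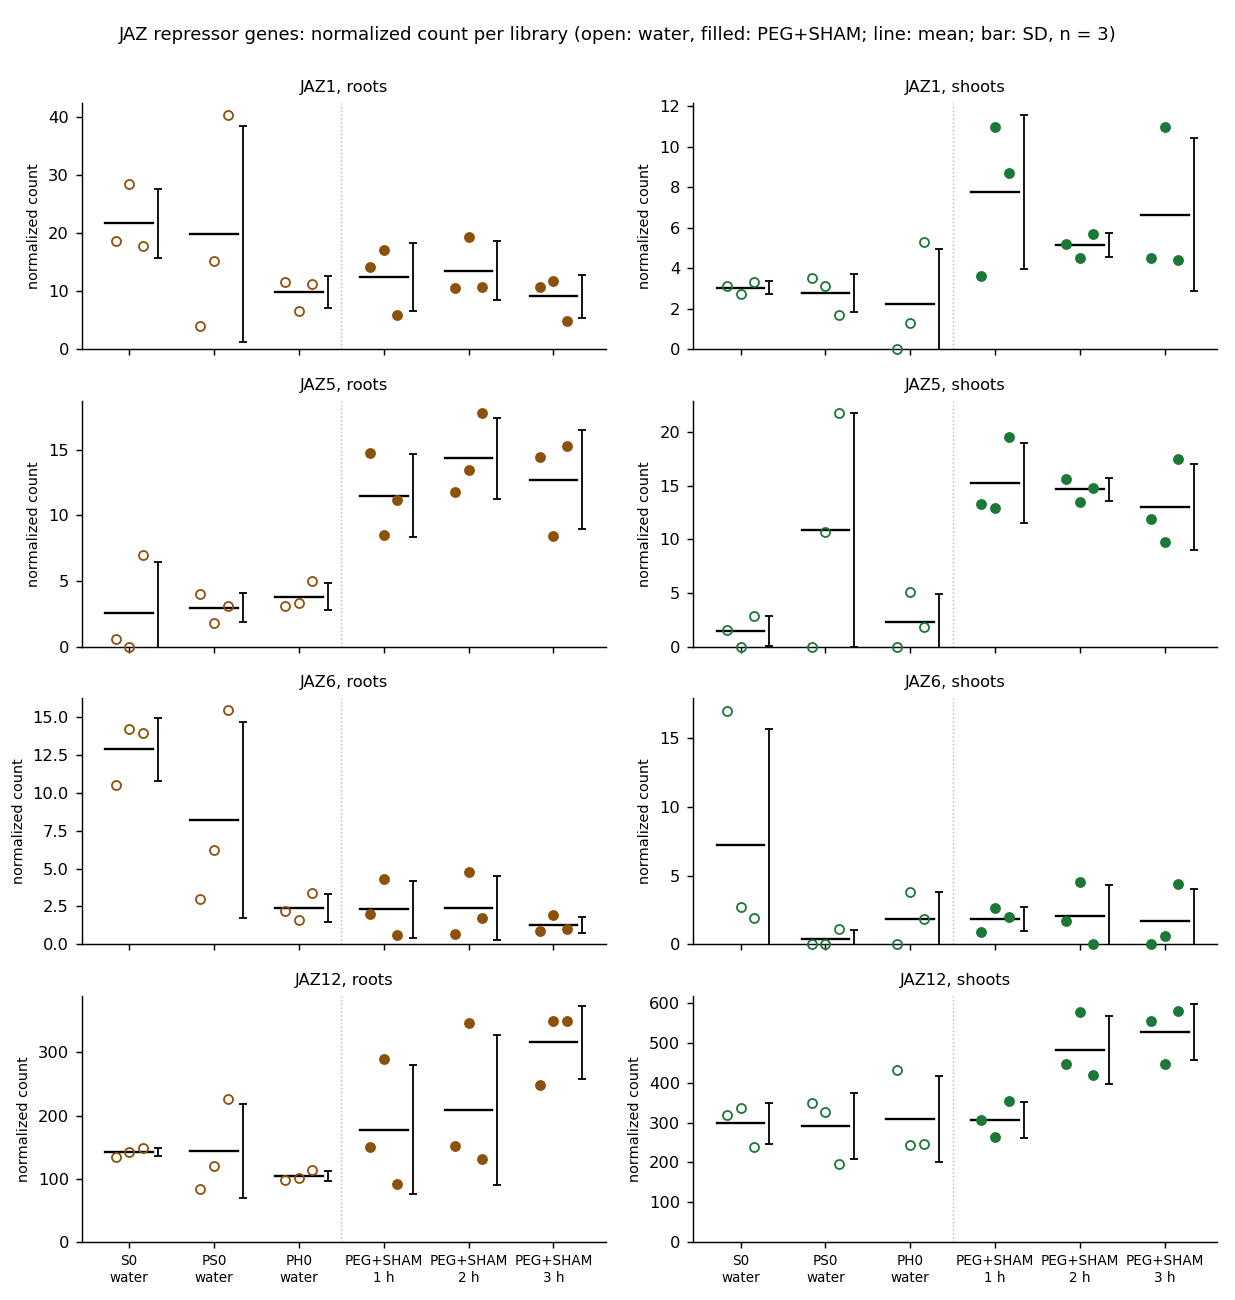
Normalized count (y axis, linear from 0) of JAZ1, JAZ5, JAZ6 and JAZ12 in each library of the 6 groups (x axis), roots left and shoots right. Open points are water and filled points PEG+SHAM libraries, lines are means and bars the SD of 3 libraries, cut at 0. JAZ5 in roots shows 9 treated libraries at 8.4 to 17.8 above 9 water libraries at 0 to 7.0, and JAZ12 stands highest at 3 h in both tissues.

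The remaining repressor genes were close to the limit of detection. JAZ2 in roots had 4.3, 9.5 and 4.5 in S0, 2.0, 2.7 and 0 in PS0, and 2.2, 2.1 and 1.7 in PH0. Treated roots had 2.7, 4.3 and 16.9 after 1 h, 2.6, 1.0 and 15.7 after 2 h, and 1.9, 1.9 and 7.7 after 3 h. In each treated group the high value was the library numbered 3, read 116, 38 and 8 times, and the other 6 held 1 to 4 reads. The changes against PS0 of 1.66 ± 0.77 at 1 h (adjusted p = 0.275) and 1.15 ± 0.77 at 2 h (adjusted p = 0.517) were not called. JAZ3, first known from the dominant jasmonate-insensitive mutant jai3, did not pass the filter on low values in either tissue. Its root levels were 4.3, 14.2 and 11.5 in S0, 0 to 4.1 in the other water libraries and 0 to 3.8 under treatment. In shoots 1 of 9 water libraries held a single JAZ3 read, against 7 of 9 treated libraries with 1 to 5 reads. With no filter, JAZ3 was called in shoots against all water (1.09 ± 0.29, adjusted p = 0.00845) and at 3 h against PS0 (1.74 ± 0.50, adjusted p = 0.0332), on those few reads. JAZ9 never exceeded 6 reads in a library, with levels of 0 to 3.7 in roots and 0 to 7.7 in shoots. Of 6 further JAZ genes listed for comparison, JAZ4 and JAZ11 were in the table. Neither was tested, with levels of at most 11.1 in any library.

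MYC2, the bHLH activator that the JAZ proteins restrain, was higher under PEG+SHAM in both tissues. Root levels in water were 73.7, 55.4 and 53.5 in S0, 50.6, 70.8 and 18.6 in PS0, and 43.4, 48.5 and 34.6 in PH0. Treated roots had 114.4, 42.7 and 86.9 after 1 h, 133.9, 107.9 and 105.4 after 2 h, and 79.3, 110.2 and 48.9 after 3 h. Only 2 of the 9 treated libraries were inside the water range, and the 2 h group lay wholly above them. The rise was 0.88 ± 0.25 against all water (adjusted p = 0.0111) and 1.07 ± 0.35 against PS0 alone (adjusted p = 0.0659). At 2 h against PS0 the change was 1.48 ± 0.42 (adjusted p = 0.0736), and it passed without PS0 replicate 2 (1.87, adjusted p = 0.0372).

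Shoot MYC2 was 15.5, 19 and 17.4 in S0, 21.2, 30.6 and 30.2 in PS0, and 66.6, 26.8 and 14.2 in PH0. Treated shoots had 29.3, 57.6 and 58.5 after 1 h, 67.4, 40.4 and 68.5 after 2 h, and 55.0, 49.8 and 53.5 after 3 h. The overlap with water came mostly from 1 library, PH0 replicate 1, whose 66.6 rests on 6 reads. MYC2 rose by 1.08 ± 0.24 against all water (adjusted p = 0.00176) and by 1.3 without the 5 shallow libraries (adjusted p = 2e-05). With PS0 alone as control the value was 0.92 ± 0.34 (adjusted p = 0.0965). Against PS0 the 2 h change was 1.06 ± 0.42 (adjusted p = 0.123). It passed with edgeR (1.21, adjusted p = 0.0201) and DESeq2 (1.17, adjusted p = 0.0288).

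VSP1 and VSP2 gave the largest changes of the 8 tested members in roots against all water, and also the largest differences between water sets. VSP1 in water roots was 33.4, 25.3 and 31.8 in S0, 71.9, 65.5 and 183.2 in PS0, and 6.7, 3.3 and 5.6 in PH0. The 3 water sets did not overlap. Treated roots had 223.4, 119.4 and 100.7 after 1 h, 151.6, 237.1 and 83.5 after 2 h, and 154.9, 109.6 and 100.7 after 3 h. Every treated library was above every S0 and PH0 library, and all treated groups overlapped with PS0.

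VSP2 repeated the order in roots at lower counts. Its water levels were 5.0, 9.5 and 1.9 in S0, 16.2, 14.2 and 27.9 in PS0, and 0.9, 0 and 1.7 in PH0. Treated levels were 40.4, 17.1 and 27.2 after 1 h, 32.8, 68.4 and 28.1 after 2 h, and 35.5, 30.5 and 27.8 after 3 h. Again the water sets were separate, and 6 of 9 treated libraries were above the highest water library. The moderated F test of the 3 root water sets called both genes (VSP1 adjusted p = 0.000148, VSP2 adjusted p = 0.00265) and none of the other 6 members tested. Of all root genes, 5.92% were called there.

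The VSP values in roots depended on the control. Against all water in roots, VSP1 rose by 2.36 ± 0.24 (adjusted p = 1.4e-06) and VSP2 by 2.52 ± 0.30 (adjusted p = 6.31e-06). These SE and p values leave out the spread between the water sets, which did not overlap for either gene. Against PS0 alone the 9 treated libraries gave 0.49 ± 0.35 for VSP1 (adjusted p = 0.433) and 0.75 ± 0.42 for VSP2 (adjusted p = 0.3). At single times in roots the largest VSP value against PS0 was that of VSP2 at 2 h, 1.06 ± 0.52 (adjusted p = 0.345). The S0, PS0 and PH0 seedlings carry 1 treatment label, water for 1 h, and no source used here says what distinguished the sets.

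In shoots VSP1 rose and VSP2 was not called. VSP1 was 4.6, 4.1 and 7.0 in S0, 14.1, 13.8 and 4.5 in PS0, and 0, 6.4 and 5.3 in PH0, against 18.6, 23.3 and 30.3 after 1 h, 22.5, 13.5 and 14.8 after 2 h, and 13.4, 12.9 and 12 after 3 h. The highest group was the earliest, 1 h, and the 3 h libraries lay inside the PS0 range. VSP1 rose by 1.55 ± 0.37 against all water (adjusted p = 0.0028), whereas with PS0 alone the value was 0.76 ± 0.52 (adjusted p = 0.39). Its change against PS0 at 1 h was 1.2 ± 0.63 (adjusted p = 0.72). VSP2 in shoots had 6.2, 10.9 and 13.2 in S0, 10.6, 13.8 and 16.2 in PS0, and 0, 12.7 and 14.2 in PH0. Treated shoots had 9.0 to 29.4 with a median of 14.8, overlapping with water throughout (0.64 ± 0.43, adjusted p = 0.267). The 0 of PH0 replicate 1 is that of the shallowest library. In the reference annotation VSP1 and VSP2 lie near each other with 1 gene between them. They are similar in sequence, and no source used here says how reads shared by paralogs were counted, so their separation is uncertain.

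**Figure D3:**
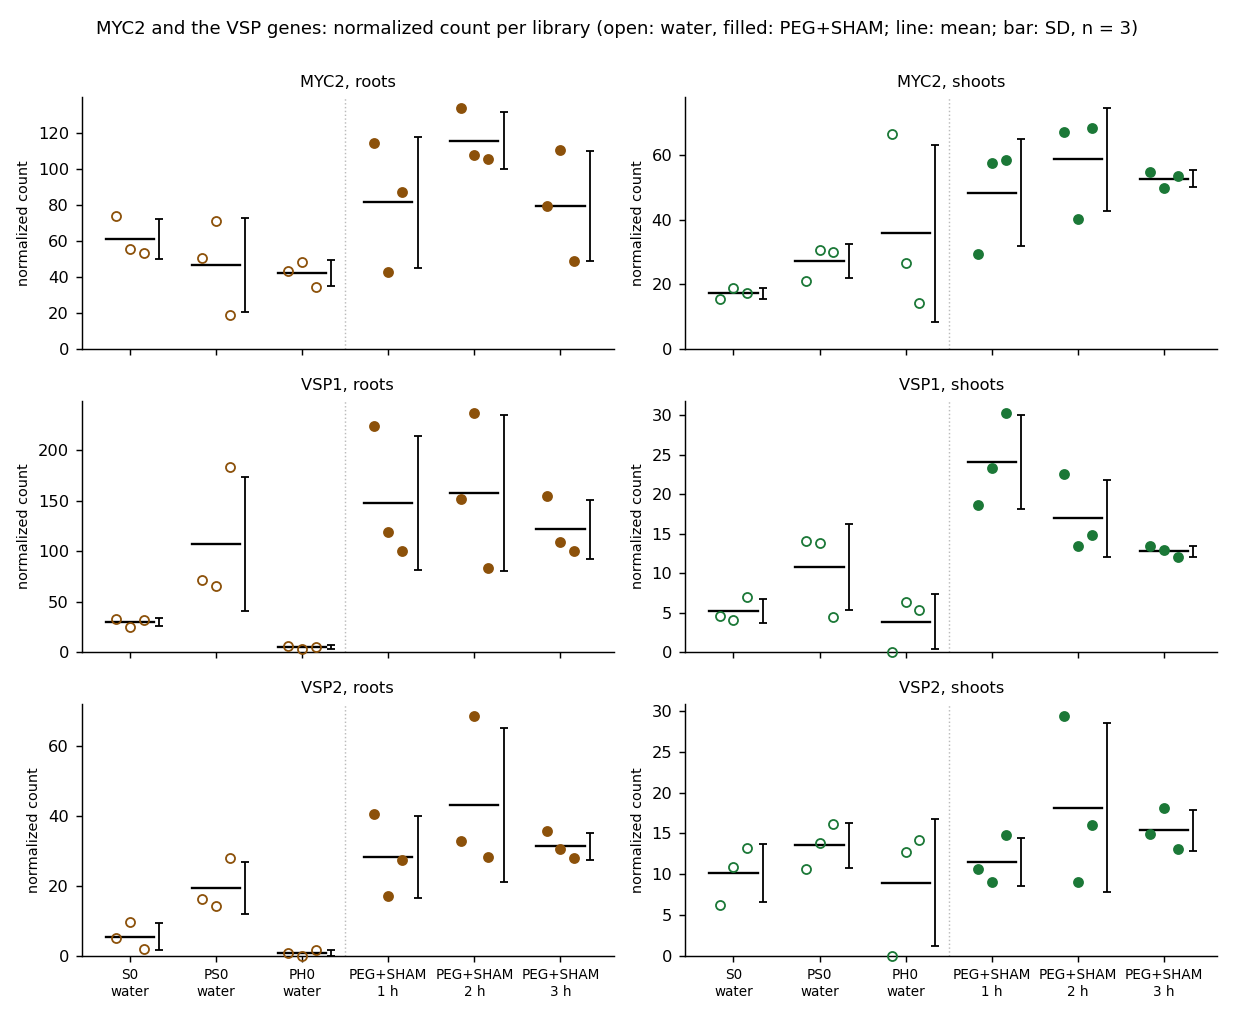
Normalized count (y axis, linear from 0) of MYC2, VSP1 and VSP2 in each library of the 6 groups (x axis), roots left and shoots right. Open points are water and filled points PEG+SHAM libraries, lines are means and bars the SD of 3 libraries, cut at 0. Root VSP1 and VSP2 differ between the 3 water sets, with PS0 at 65.5 to 183.2 and 14.2 to 27.9 next to the treated libraries.

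**Figure D4:**
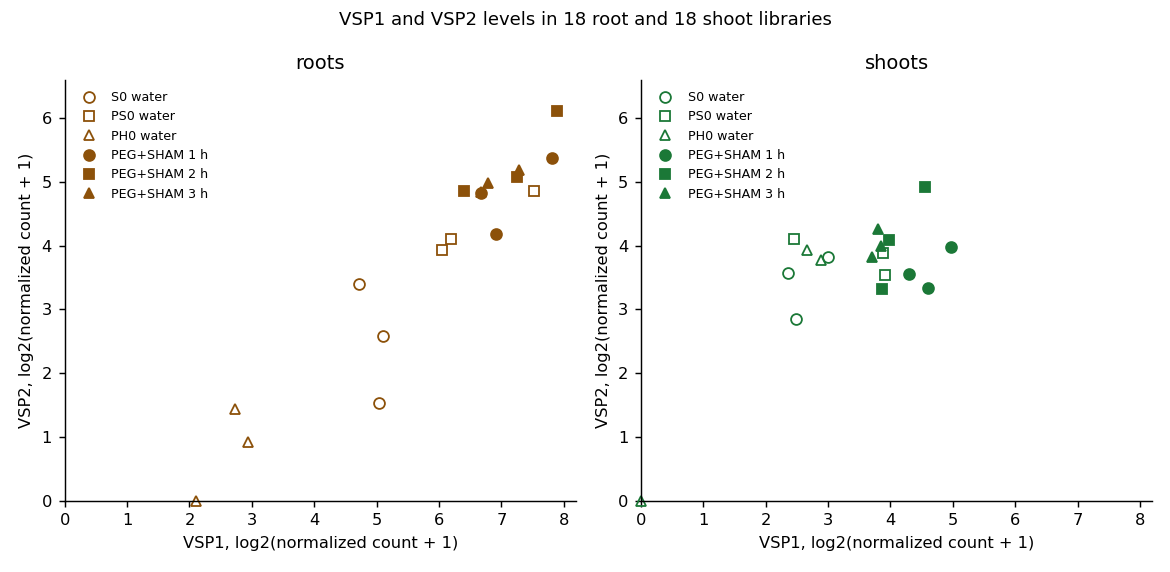
VSP2 against VSP1, both as log2(normalized count + 1), in 18 root and 18 shoot libraries. In roots the libraries line up from PH0 through S0 and PS0 to PEG+SHAM, whereas in shoots treated libraries stand to the right of most water libraries with no matching shift in VSP2. The shoot library at the origin is PH0 replicate 1, with 0 reads of either gene.

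Counts of calls at single times were as follows. In roots against PS0, 0 of 8 were called at 1 h (1.67% of all genes), 0 at 2 h (3.04%) and 0 at 3 h (6.56%) by limma. At each root time 3 members had an unadjusted p under 0.05. Of the 8 members tested in roots, edgeR called 0, 0 and 1, and DESeq2 0, 1 and 2. Over all root genes at 1, 2 and 3 h, edgeR called 107, 247 and 509 higher and 49, 116 and 273 lower. DESeq2 called 174, 299 and 519 higher and 224, 226 and 468 lower. In shoots limma called 0 of 6 at 1 h (0.870% of all genes), 0 at 2 h (9.42%) and 1 at 3 h, with 0, 2 and 2 at an unadjusted p under 0.05. EdgeR called 0, 2 and 2 and DESeq2 0, 2 and 1. Over all shoot genes, edgeR called 129, 589 and 973 higher and 39, 469 and 861 lower. DESeq2 called 131, 537 and 832 higher and 73, 570 and 914 lower. Between 3 h and 1 h of treatment, which uses no water library, limma called 0 of 8 in roots (1.27% of all genes) and 0 of 6 in shoots (6.24%). JAZ12 was the member with an unadjusted p under 0.05 in each tissue (roots 0.97 ± 0.41, shoots 0.78 ± 0.25), and edgeR and DESeq2 called 0 in roots and 1 in shoots. Over all genes in that shoot comparison, edgeR called 605 higher and 550 lower, and DESeq2 593 higher and 483 lower. Of the 6 members tested in shoots, 0 had treated and water libraries that did not overlap, against 3.00% of all shoot genes. The shoot water sets gave 0 of 6 calls with limma, none with an unadjusted p under 0.05, where limma called 25.5% of all shoot genes. EdgeR and DESeq2 called 1 member each there, and their shares of all genes are not given here.

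Other values moved with treatment beside these changes. The root marker sum was 2394.9 to 3852.3 in water roots, 1697.7 to 2656.8 at 1 h and 955.0 to 1086.2 at 3 h, and 9 of 11 tested root markers were lower over all treated libraries. In shoots 13 of 17 photosynthesis genes were lower and 1 was higher, with sums of 196129.7 to 283962.2 in water and 119956.8 to 146769.8 at 3 h. Their part in the changes of the JAZ, MYC2 and VSP genes was not tested. The median of all genes was -0.24 in roots and -0.05 in shoots for all treated against all water. Quantile normalization moved the root median to 0.00 and gave 6 root calls.

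Comparing organs in water, 5 of 8 tested members differed between roots and shoots, where 69.3% of all genes did and the median gene was 0.58 higher in roots. JAZ1 was higher in roots by 2.2 ± 0.36 (adjusted p = 2.82e-06), VSP1 by 2.08 ± 0.31 (adjusted p = 4.65e-07), JAZ6 by 1.45 ± 0.42 (adjusted p = 0.00294) and MYC2 by 0.94 ± 0.25 (adjusted p = 0.00144). Of the 5 called, only JAZ12 was lower in roots (-1.22 ± 0.20, adjusted p = 4.21e-06). VSP2 was also lower in roots but not called (-0.75 ± 0.38, adjusted p = 0.0815). With TMM, edgeR or DESeq2, or without the shallow libraries, 2 members were called lower. JAZ6 did not pass with edgeR or DESeq2. For VSP1 the root levels come from 3 sets that differ from each other, from 3.3 to 183.2, whereas shoot levels were 0 to 14.1.

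Whether roots and shoots responded differently was tested as the difference of the changes. Against PS0 limma called 0 of 6 members at 1 h (0.348% of all genes), 0 at 2 h (2.63%) and 0 at 3 h (3.83%), none had an unadjusted p under 0.05, and edgeR and DESeq2 called none. JAZ1 had the largest values, -1.42 ± 0.88 at 1 h (adjusted p = 0.79) and -1.60 ± 0.88 at 3 h (adjusted p = 0.371), negative where the root change was below the shoot change. The difference was also taken over all treated against all water libraries, a comparison added after the values were seen, in which 17.0% of all genes and 2 of 6 members passed. VSP2 differed by 1.88 ± 0.54 (adjusted p = 0.0147), higher in roots, where its S0 and PH0 water sets stood below PS0. Against PS0 the VSP2 difference was 0.72 at 1 h, 0.79 at 2 h and 0.53 at 3 h, each ± 0.94. None of these was called (adjusted p = 0.974, 0.789 and 0.849). JAZ1 differed by -1.46 ± 0.51 (adjusted p = 0.0441), a call that was lost with a pseudocount of 5 (adjusted p = 0.0519), under TMM (0.0649), without the shallow libraries (0.0587) and in 22 of 36 fits that left out 1 library. With no filter JAZ3 was called as well (-1.70 ± 0.49, adjusted p = 0.0153). For JAZ5 the difference was -0.25 (95% interval -1.55 to 1.05) and for MYC2 -0.20 (-0.93 to 0.52), so no difference was detectable at this spread.

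The other genes of the jasmonate pathway were counted list by list in the comparison of 9 treated with 9 water libraries. In either direction, 34.2% of all genes were called there in roots and 34.3% in shoots. Of 11950 root genes, 1191 were higher and 2894 lower, and of 10459 shoot genes, 1425 were higher and 2163 lower. Of the 10 receptor and cofactor genes, among them COI1, NINJA, TPL, MYC3 and MYC4, none rose in roots and 2 fell, the Mediator subunit gene MED25 (-0.68 ± 0.14) and the bHLH repressor gene JAM3 (-0.36 ± 0.12). That root count was unstable. EdgeR and DESeq2 each gave 1 higher and 1 lower, a pseudocount of 5 gave 1 and 3, TMM gave 0 and 1, and leaving out the shallow libraries, or root 1 h replicate 2 alone, gave 1 and 4. Leaving out any of 7 other libraries gave 0 and 1. In shoots 1 rose, the bHLH repressor gene JAM1 (0.90 ± 0.18, adjusted p = 0.000705), which also passed at 3 h against PS0 (1.15 ± 0.31). The shoot count was 2 higher with quantile normalization, edgeR or DESeq2, without the shallow libraries, and without S0 replicate 3, PS0 replicate 2 or PH0 replicate 1. The median change of the list was -0.09 in roots and 0.11 in shoots.

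Of the jasmonate synthesis genes, 2 of 10 tested rose in roots and 9 of 13 in shoots, with none lower. Of all genes, 34.2% in roots and 34.3% in shoots were called in either direction. The root count of synthesis genes was 4 under TMM, 6 with edgeR and 1 with a filter of 20. The root calls were the allene oxide synthase gene AOS (0.60 ± 0.13) and the lipoxygenase gene LOX4 (1.38 ± 0.32). In shoots the allene oxide cyclase gene AOC3 rose most (2.79 ± 0.23, adjusted p = 2.05e-08). Its PS0 libraries ranged from 10.6 to 47.5 and its 3 h libraries from 77.5 to 114.4. JAR1, which makes jasmonoyl-isoleucine, rose in shoots by 1.48 ± 0.34 over all treated against all water libraries (adjusted p = 0.00229). At 3 h against PS0 its change was larger, 3.31 ± 0.59 (adjusted p = 0.000586), with 3.1 to 11.2 in PS0 and 49.0 to 70.4 at 3 h. The list median was 0.33 in roots and 0.61 in shoots.

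Against all water, genes that inactivate jasmonate were called in 3 of 7 cases in roots and 6 of 8 in shoots, all higher. Their medians were 0.80 and 1.44, and 34.2% and 34.3% of all genes were called. Counted in either direction, the root share is near that of all genes. Of the 11950 genes tested in roots, 1191 were called higher and 2894 lower. Quantile normalization gave 5 root calls in the list. The jasmonate oxidase gene JOX4 rose in roots by 3.27 ± 0.24, but like the VSP genes it stood higher in PS0 water (55.8 to 86.9) than in S0 (5.0 to 18.5) or PH0 (1.6 to 2.7). The hydroxylase gene CYP94B3 rose against all water in both tissues, by 1.82 ± 0.18 in roots and 3.05 ± 0.43 in shoots. Against PS0 it was called in roots at 2 h (1.34 ± 0.32, adjusted p = 0.0273) and 3 h (2.21 ± 0.32, adjusted p = 0.000234). In shoots it was called against PS0 at no single time. The moderated F test of the shoot water sets called 4 of 8 inactivation genes, where 25.5% of all shoot genes were called. At 3 h against PS0 in shoots, 1 inactivation gene was called higher and 1 lower. These were ILL6 (2.94 ± 0.77, adjusted p = 0.0139) and CYP94C1 (-2.26 ± 0.63, adjusted p = 0.0201). Of other jasmonate targets, 2 of 3 tested rose in roots and 5 of 7 in shoots, where 1 fell. With a filter of 20, 1 rose and 1 fell in shoots. ANAC055, a NAC factor gene downstream of MYC2, rose in roots (2.81 ± 0.27) and shoots (2.52 ± 0.17), and at 3 h against PS0 as well (2.41 ± 0.46 and 3.50 ± 0.29). ORA59, an ERF factor gene of the ethylene-dependent branch, fell in shoots at 3 h against PS0 (-2.13 ± 0.37, adjusted p = 0.000512). In roots ORA59 was not called against all water (0.68 ± 0.31, adjusted p = 0.104). ERF1, another ERF factor gene of the list, rose against all water in roots (2.47 ± 0.32, adjusted p = 1.83e-05) and shoots (2.22 ± 0.36, adjusted p = 8.24e-05). Against PS0 it was called at no single time in either tissue. The moderated F test of the water sets called 1 of 3 target genes in roots and 5 of 7 in shoots. Of all genes, 5.92% in roots and 25.5% in shoots were called by that test.

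With PS0 alone as control, 1 of 10 synthesis genes in roots and 5 of 13 in shoots were higher over all treated libraries. For inactivation genes the counts were 1 of 7 and 1 of 8, and for targets 1 of 3 and 2 of 7. Of all genes, 7.81% in roots and 10.2% in shoots were called with that control. Of the receptor and cofactor genes 0 were called in roots and 1 rose in shoots, the same number as against all water. These lists were picked with earlier results of the data known.

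**Figure D5:**
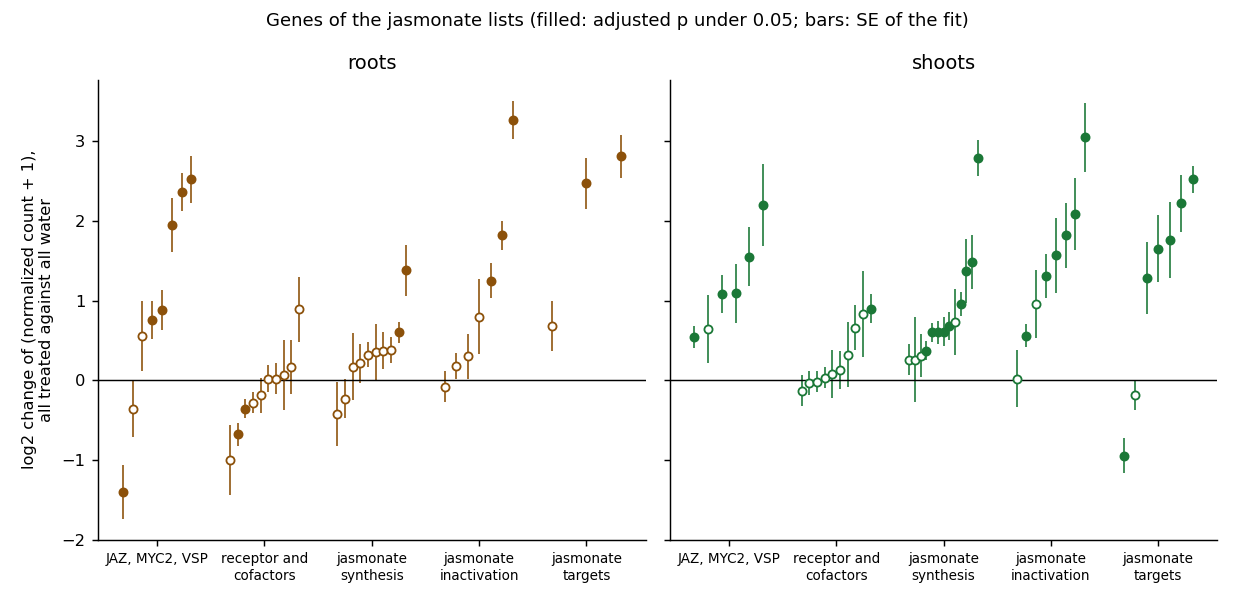
Log2 change of log-transformed normalized counts (y axis) for all treated against all water libraries, 9 against 9, for each tested gene of the 10 described and of 4 lists of jasmonate genes (x axis), roots left and shoots right. Bars are the SE of the limma fit and filled points have an adjusted p under 0.05. Filled points among the synthesis genes number 2 of 10 in roots and 9 of 13 in shoots, and the receptor and cofactor genes lie around 0 in both.

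The genes most like JAZ1, MYC2 and VSP2 were found by Pearson's r of log2(normalized count + 1) over 18 libraries of a tissue, given as a description. VSP2 in roots was most like the cysteine protease gene AT4G11320 (r = 0.963), AT4G23670 (0.956) and AT5G06570 (0.944), and its r with VSP1 was 0.95. These values include the spread between the water sets. With group means removed, the r of VSP1 and VSP2 was 0.59. In shoots the genes most like VSP2, led by AT5G08560 (0.964), are at 0 in the shallowest library, which they share. MYC2 was most like CYP735A2 (0.855) in roots and AT2G32240 (0.889) in shoots. JAZ1 was most like RRP41 (0.907) in roots and AT5G17980 (0.842) in shoots, and its r with JAZ6 in roots was 0.78.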

How the data were processed

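MARS-seq libraries of roots and shoots, 18 each, were used as 1 deposited table of normalized signal for 16283 genes: the authors deposited gene counts scaled by 1 size factor per library and rounded to 0.1; all 36 columns were mapped to samples and 0 were left out. Per the submitters' processing notes, bcl2fastq, cutadapt, STAR 2.4.2a, HTSeq and DESeq2 were used. No source used here gives their roles, the genome build, the strandedness or the handling of molecular identifiers, and coordinates are therefore left out. Whole reads were recovered as multiples of 1 step per library, with 100% of values within the rounding of 0.05, and gave depth and the input of edgeR 4.0.16 and DESeq2 1.42.0. Recovery and the fit were tested on simulated data, where the step was found in 36 of 36 libraries.

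The main test was limma 3.58.1 (R 4.3.3) with a mean-variance trend on log2(signal + 1), fitted on 6 groups a tissue or 12 groups across tissues, with p adjusted over all genes tested. Genes needed a signal of 5 or more in 3 libraries. The members, gene lists and tests were chosen with earlier results of these data known. Every member was named, with a change for each call and each uncalled log2 change of 1 or more; list genes were named when called, at most 4 per list and comparison. Replicates are separate pools of seedlings per the labels. Replicate numbers were checked for pairing and did not pair the libraries. Alternatives changed the pseudocount, filter, scaling, tool, control, block or libraries. Depth limits cover counting error only: a floor is 3 reads of the library.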

Additional observations from a re-analysis of the deposited data

Results flagged for a closer look

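Of the members, 2 differed between roots and shoots in the change from all water to all treated libraries, by the interaction term of limma across 36 libraries. This comparison was added after the values were seen. JAZ1 had a difference of -1.46 ± 0.51 (adjusted p = 0.0441), with a change of -0.36 in roots and 1.09 in shoots. VSP2 had a difference of 1.88 ± 0.54 (adjusted p = 0.0147), with a change of 2.52 in roots and 0.64 in shoots. The JAZ1 value missed the threshold with a pseudocount of 5 (-0.88, adjusted p = 0.0519), under TMM (-1.36, 0.0649), without the 5 shallow libraries (-1.17, 0.0587) and in 22 of the 36 fits that left out 1 library. VSP2 passed in all 36 of those fits, with values from 1.65 to 2.31. With a filter of 20 neither gene was tested. The VSP2 root change rests on the S0 and PH0 water sets, which stood below PS0.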

How the results depend on the processing

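Of 963 alternative values for 40 results of single members, 871 had the same direction and side of the threshold, 45 lost a call, 40 gained one and 7 changed sign. The control moved most counts. With all 3 water sets as control root calls numbered 3 at 1 h, 4 at 2 h and 5 at 3 h, and shoot calls 1, 4 and 3. With S0 and PH0 as control, roots gave 3, 4 and 5 calls and shoots 2, 4 and 4. With S0 and PH0 the difference between tissues called 1 member at 1 h and 1 at 2 h. The share of all genes called with these controls is not given here, so these counts are not read as particular to the members. With PS0 alone, an alternative chosen after seeing the data, all treated libraries gave 1 in roots and 0 in shoots. Of all genes, 7.81% in roots and 10.2% in shoots were called there.

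In roots at 2 h against PS0, a pseudocount of 5, quantile normalization and DESeq2 each gave 1 call. In roots at 3 h a pseudocount of 5, TMM, edgeR and leaving out the shallow libraries each gave 1, and quantile normalization and DESeq2 gave 2. Root 3 h against 1 h gave 1 without the shallow libraries. In shoots at 2 h the filter of 20, quantile normalization and leaving out the shallow libraries gave 1 each, and edgeR and DESeq2 gave 2 each. In shoots at 3 h no filter and edgeR gave 2, the former by adding JAZ3. Shoot 3 h against 1 h gave 1 with edgeR, DESeq2, a fit of only those groups, or without the shallow libraries. The shoot water sets gave 1 with quantile normalization, edgeR, DESeq2 or without the shallow libraries. A filter of 20 tested fewer genes and gave 3 for shoots over all treated libraries, 3 for root against shoot in water, and 0 for the difference between tissues over all treated libraries, where TMM gave 1. The share of all genes called is not given beside these counts, so they are not read as particular to the members.

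Leaving out 1 library at a time gave 0 to 1 calls in roots at 2 h, in roots at 3 h, in shoots at 3 h and among the shoot water sets, and 1 to 2 for the difference between tissues over all treated libraries. The root call at 2 h came without PS0 replicate 2. All other counts of members stayed within 1.5 times when 1 library was left out. JAZ1 in shoots over all treated libraries lost its call with no filter (1.09, adjusted p = 0.0533), in which more genes were tested.

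JAZ5 in shoots against PS0 reversed its sign without the shallow libraries, at -0.032 at 1 h, -0.012 at 2 h and -0.257 at 3 h, and with edgeR at 3 h (-0.07). Leaving out 1 library it ranged from -0.032 to 2.22 at 1 h, -0.065 to 2.19 at 2 h and -0.257 to 2.00 at 3 h. The lowest values came without PS0 replicate 1, which held 0 JAZ5 reads.

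The replicate numbers did not pair the libraries: same-numbered libraries correlated with a mean r of 0.041 in roots (15 of 45 pairs over 0.1) and 0.001 in shoots (7 of 45). In roots 6 of 18 and in shoots 8 of 18 libraries correlated best with their own number. With the replicate block 6 members were called in roots and 5 in shoots over all treated libraries, and no call of a member in any comparison changed. Low depth limits JAZ2, JAZ3, JAZ6 and JAZ9 in shoots, and JAZ3 and JAZ9 in roots, which did not pass the filter on low values. With no filter JAZ3 was called in 4 comparisons and none of the others in any.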
